A study of Mus musculus with 4 samples.

Results

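The Sprr genes encode the small proline-rich proteins of stratified epithelia. They were followed here in sorted basal cells of the epidermis of mouse embryos (day 16), with and without Ezh2. Of 10 Sprr genes looked for (Sprr1a, Sprr1b, Sprr2a1, Sprr2b, Sprr2d, Sprr2h, Sprr2i, Sprr2k, Sprr3 and Sprr4), 7 had a probe set that the platform annotation lists with that gene alone, and each of the 7 had 1 such probe set. All 7 were kept whatever their brightness, out of 18193 genes measured in this way. Sprr2b and Sprr4 are not in the annotation used, and the 3 probe sets that list Sprr2a1 also list other Sprr2a copies, so these 3 are given by probe set and not as a gene. The groups were wild type (WT) and a conditional knockout of Ezh2 (Ezh2cKO), both in mice of mixed strain (C57 and CD1), with 2 arrays each, numbered 1 and 2 in each group. The promoter that drove the recombinase, the deleted exons and the number of animals behind each array are not given in the sources used here, and where arrays of 1 group do not come from separate animals the p-values measure a technical spread.

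Small proline-rich proteins are precursors of the cornified envelope, the cross-linked protein shell that replaces the plasma membrane of dying keratinocytes. Transglutaminases join them through glutamine and lysine residues near their ends to loricrin, involucrin and other envelope proteins, and their proline-rich repeats act as flexible bridges. The genes form a cluster within the epidermal differentiation complex, are normally low in basal cells and come up in suprabasal cells and in injured or stressed epithelium. Ezh2 is the histone methyltransferase of a Polycomb complex that silences genes, and the comparison asked which genes change in epidermal progenitors when that silencing is lost.

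The promoter sequences show how alike the members are outside their coding parts, and which motifs the measured Sprr2 genes have in common. They come from RefSeq (build GRCm38.p6), run 5′ to 3′ on the strand of the gene and stop before the transcription start. Capitals mark matches to the AP-1 motif TGANTCA, the octamer ATTTGCAT and the TATA motif TATAAA. The pair of Sprr1 genes is shown over the 250 bases before the start, Sprr1a at chr3:92485882-92486131, minus strand, and Sprr1b at chr3:92438780-92439029, minus strand.
Sprr1a: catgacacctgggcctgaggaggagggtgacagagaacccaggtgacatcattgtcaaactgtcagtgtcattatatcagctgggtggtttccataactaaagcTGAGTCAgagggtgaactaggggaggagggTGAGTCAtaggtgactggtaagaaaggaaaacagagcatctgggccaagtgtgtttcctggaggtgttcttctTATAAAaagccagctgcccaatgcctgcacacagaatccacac
Sprr1b: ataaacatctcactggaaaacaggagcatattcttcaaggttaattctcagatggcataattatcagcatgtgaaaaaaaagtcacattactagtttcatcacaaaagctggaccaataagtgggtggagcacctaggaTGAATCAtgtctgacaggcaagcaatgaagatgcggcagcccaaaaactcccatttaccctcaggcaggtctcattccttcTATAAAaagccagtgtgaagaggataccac
The 4 measured Sprr2 genes are shown from 5 bases before the AP-1 match to 5 bases after the TATA match. They lie at chr3:92338942-92339121, plus strand, at chr3:92385482-92385666, plus strand, at chr3:92407793-92407972, plus strand, and at chr3:92432381-92432563, plus strand.
Sprr2d: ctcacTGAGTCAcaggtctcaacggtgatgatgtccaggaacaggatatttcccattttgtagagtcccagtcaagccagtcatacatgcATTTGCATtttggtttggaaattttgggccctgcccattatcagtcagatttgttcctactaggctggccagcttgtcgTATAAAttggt
Sprr2h: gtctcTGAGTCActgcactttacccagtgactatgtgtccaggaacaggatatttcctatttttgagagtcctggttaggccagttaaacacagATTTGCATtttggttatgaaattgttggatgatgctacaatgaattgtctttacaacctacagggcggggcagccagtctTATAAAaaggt
Sprr2i: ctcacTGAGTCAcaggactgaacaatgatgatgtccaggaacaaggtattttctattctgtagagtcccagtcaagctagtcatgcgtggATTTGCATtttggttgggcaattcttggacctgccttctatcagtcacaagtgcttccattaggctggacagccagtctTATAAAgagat
Sprr2k: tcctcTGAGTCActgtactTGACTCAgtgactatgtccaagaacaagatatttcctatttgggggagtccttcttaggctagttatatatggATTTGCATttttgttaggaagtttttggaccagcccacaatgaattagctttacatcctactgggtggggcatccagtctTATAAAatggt
In each of these 4 the AP-1 match, the octamer and the TATA match follow in the same order. The AP-1 match began 193 bases before the start in Sprr2d and Sprr2i, 198 in Sprr2h and 196 in Sprr2k, which has another AP-1 match at 182. The octamer began at 108 or 109 bases and the TATA match at 29 bases before the start in all 4.

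Sprr1a had AP-1 matches at 146 and 116 bases before the start and Sprr1b had 1 at 111, and neither held the octamer. Sprr3 held no AP-1 match or octamer in this window, and its TATA match began at 33 bases. Both strands were searched for 5 motifs over the 250 bases upstream in 32851 promoters of all genes. An AP-1 match was present in 7 of the 10 Sprr promoters and in 6.75% of all promoters, the octamer in 5 and in 1.60%, and the TATA match in 8 and in 12.4%. The Ets motif GGAAGT was present in 3 Sprr promoters and 19.7% of all, and the Klf motif CACCC in 5 and 52.0%. Sprr2a1 and Sprr4 held no match to any of the 5 motifs. The order shown for the measured Sprr2 genes was thus not found in Sprr2a1 in this window. In Sprr1a the reverse of CACCC overlaps the nearer AP-1 match. In a global alignment of the 250 bases, Sprr2h and Sprr2k shared 80.6% of aligned positions and Sprr2d and Sprr2i 77.5%, and the other 4 pairs of these Sprr2 genes shared 64.5% to 67.0%. Sprr1a and Sprr1b shared 55.9%, less than the 57.8% of Sprr1b and Sprr3. A match is a run of letters and not a binding site, and the Sprr promoters resemble each other, so these counts are not independent.

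The deposited values are MAS5 signals on a linear scale, and differences below are of log2(signal + 16), Ezh2cKO minus WT, a scale that understates the change of dim genes. Folds are of signal + 16, and errors of mean signals are SD with n = 2. Ezh2 had signals of 3336 and 3603 in WT and of 661 and 1308 in Ezh2cKO (log2 difference -1.88, SE 0.32), lower in both Ezh2cKO arrays, which checks the labels. The median signal per array lay between 87.4 and 91.6 in the arrays numbered 1 and between 136.9 and 148.1 in those numbered 2, so genotype differences are shown within numbers as well, with 1 array a genotype. All 8 basal markers were bright, with Krt14 between 14501 and 16592, but so were Krt10 of suprabasal cells, between 16550.4 and 20275, and the fibroblast gene Dcn, between 13276 and 17210. The summed signal of 6 endothelial markers was 3286 in Ezh2cKO replicate 1 and 6410.1 to 8175 on the other arrays, that of 5 spinous markers was 39917 to 47976, and that of 8 periderm and simple epithelial markers was 894 to 935 in WT and 1193 to 1269 in Ezh2cKO. The last list had no common direction, with a median log2 difference of -0.03, since Krt23 (2.16), Cldn4 (0.69), Krt8 (0.41) and Krt18 (0.15) were positive and Krt4 (-0.60), Upk1b (-0.44), Krt19 (-0.39) and Krt13 (-0.22) negative. The part of these cell types in the Sprr signals was not tested, and in sorted cells a change in their number and in RNA per cell cannot be told apart.

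Sprr1b, one of the envelope precursors that basal keratinocytes switch on as they differentiate, was the only measured Sprr gene with both Ezh2cKO arrays above both WT arrays. Its signals were 75.9 and 128 in WT and 142 and 229 in Ezh2cKO, with means of 102 ± 37.2 and 186 ± 61.8. The groups do not overlap, but the lower Ezh2cKO array lies close to the higher WT array. Within the numbers the difference was nearly the same, 1.72-fold within number 1 and 1.70-fold within number 2. The log2 difference was 0.77 (SE 0.49, 95% confidence interval -0.42 to 1.97), and limma's adjusted p was 0.999993 over all probe sets (unadjusted 0.165). This interval runs from a fold of 0.745 to 3.92, so it holds both no difference and a rise of more than 2-fold. Across the genes tested, 1801 of 18193 (9.90%) had both Ezh2cKO arrays above both WT arrays, against 1 of the 7 Sprr genes.

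Sprr1a, the closest relative of Sprr1b and a gene known for its induction in injured tissue, was also higher in Ezh2cKO within both numbers, by 1.12-fold and 1.48-fold. Its signals were 122 and 198 in WT and 138 and 301 in Ezh2cKO. The groups overlap, since Ezh2cKO replicate 1 lies below WT replicate 2. The log2 difference was 0.36 (SE 0.50, interval -0.87 to 1.60), with limma's adjusted p at 0.999993. Leaving out Ezh2cKO replicate 2 turned it to -0.16, and leaving out Ezh2cKO replicate 1 raised it to 0.88. Higher values within both numbers were found for 2 of 7 Sprr genes, these Sprr1 genes, and for 25.5% of all genes. Whether Sprr1b and Sprr1a differed in their response was not tested.

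The Sprr2 genes, a larger subfamily with near-identical members whose proteins enter the same envelope, showed no common direction. Sprr2k, above the median of every array, had signals of 210.3 and 195 in WT and of 159 and 224 in Ezh2cKO. Its Ezh2cKO arrays lie on either side of the WT arrays (log2 difference -0.09, SE 0.37, interval -1.0 to 0.82). Sprr2d had 53.0 and 87.2 in WT and 38.7 and 83.3 in Ezh2cKO. Its arrays overlap as well, and each number-1 array lies below both number-2 arrays. The Sprr2d difference was -0.34 within number 1 and -0.06 within number 2 (log2 -0.20, SE 0.57, interval -1.58 to 1.19).

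Sprr2h and Sprr2i were among the dimmest probe sets, below the lower quartile of every array. Sprr2h had 12.5 and 9.88 in WT and 10.2 and 17.7 in Ezh2cKO, so its highest value was an Ezh2cKO array and the rest lay close together. Its probe set is of a design type shared by several transcripts, so another Sprr2 copy may add to it. Sprr2i had 5.17 and 8.30 in WT and 3.60 and 5.88 in Ezh2cKO. Whether either gene was above background was not tested, so the values set no level for these genes. Sprr2d and Sprr2i were lower in Ezh2cKO within both numbers, as 24.7% of all genes were.

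Sprr3, best known from oral and oesophageal epithelium, had signals of 16.5 and 31.7 in WT and of 9.91 and 34.6 in Ezh2cKO. Both number-1 arrays lie below both number-2 arrays, and the Ezh2cKO pair encloses the WT pair. The log2 difference was -0.12 (SE 0.46, interval -1.25 to 1.01), at -0.33 within number 1 and 0.08 within number 2. All 4 values lie below the lower quartile of their array.

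**Figure D1:**
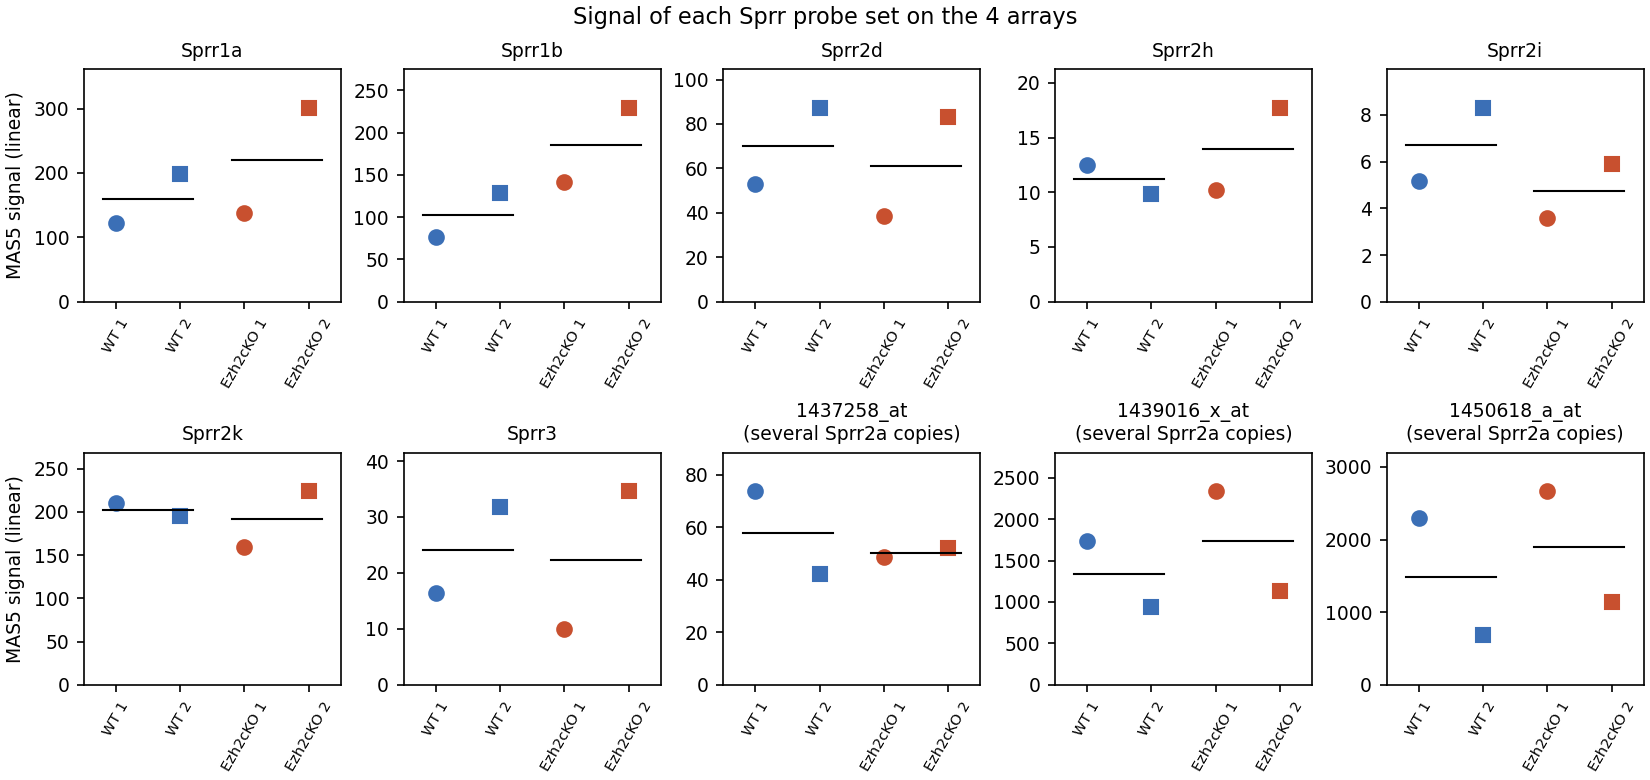
MAS5 signal (linear axis from 0, own scale in each panel) of the 7 measured Sprr genes and of 3 probe sets listed with several Sprr2a copies, with circles for number 1, squares for number 2, blue for WT, red for Ezh2cKO and a line at each mean of 2 arrays. Sprr1b is the only one of the 7 genes whose red points both lie above its blue points, at 142 and 229 against 75.9 and 128.

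Sprr2a is the Sprr2 gene with several nearly identical copies in the mouse. The probe set 1450618_a_at gave 2294 and 685 in WT and 2665 and 1144 in Ezh2cKO. The probe set 1439016_x_at gave 1736 and 936 in WT and 2335 and 1130.3 in Ezh2cKO. In both, the Ezh2cKO array was the higher one within each number, by 1.16-fold and 1.65-fold for the first and by 1.34-fold and 1.2-fold for the second, while the numbers themselves lay further apart than the genotypes. The log2 differences were 0.47 (SE 0.63, interval -1.06 to 2.00) and 0.35 (SE 0.42, interval -0.69 to 1.38), with limma's adjusted p at 0.999993 for both. The probe set 1437258_at was dim, at 73.8 and 42.3 in WT and 48.6 and 52.1 in Ezh2cKO, and showed no order of the genotypes (log2 -0.13, SE 0.51). The suffix of 1439016_x_at marks a design that can detect other transcripts too, and the 3 probe sets share targets, so they are not independent measurements of the copies.

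A pair of other family genes had a probe set of their own. Sprr2f had 18.4 and 20.6 in WT and 16.4 and 15.2 in Ezh2cKO, lower in both Ezh2cKO arrays by a small step (log2 -0.16, SE 0.30). The transcribed pseudogene Sprr2j-ps lay at 1.97 and 6.88 in WT and 5.84 and 9.08 in Ezh2cKO, near the bottom of the scale.

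Over the whole table, limma called 0 of 45037 probe sets (0%) at an adjusted p under 0.05, with 504 (1.12%) at an unadjusted p under 0.05. None of the 7 Sprr genes was called, and 0 of 7 had an unadjusted p under 0.05, where 0.808% of all genes were higher and 0.324% lower at that level. No Sprr gene was 2-fold apart between the genotypes in either number, in either direction. Of all genes, 1.63% were at least 2-fold higher in Ezh2cKO within number 1 and 2.06% within number 2, and 2.01% and 1.08% were at least 2-fold lower. The WT arrays themselves were at least 2-fold apart for 6.48% of all genes and for 0 of the 7 Sprr genes. The median log2 difference of the 7 genes was -0.09, at -0.12 within number 1 and 0.19 within number 2, against 0.00 for all genes. The 95% intervals reached past 2-fold in 1 direction or both for 4 of the 7 genes. For Sprr2h and Sprr2i the narrower intervals are set by the pseudocount of 16 on signals of similar size or less, so they do not bound the change in signal. Ezh2 itself had an adjusted p of 0.999993 in this limma fit, so a lack of calls does not show that genes did not differ.

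**Figure D2:**
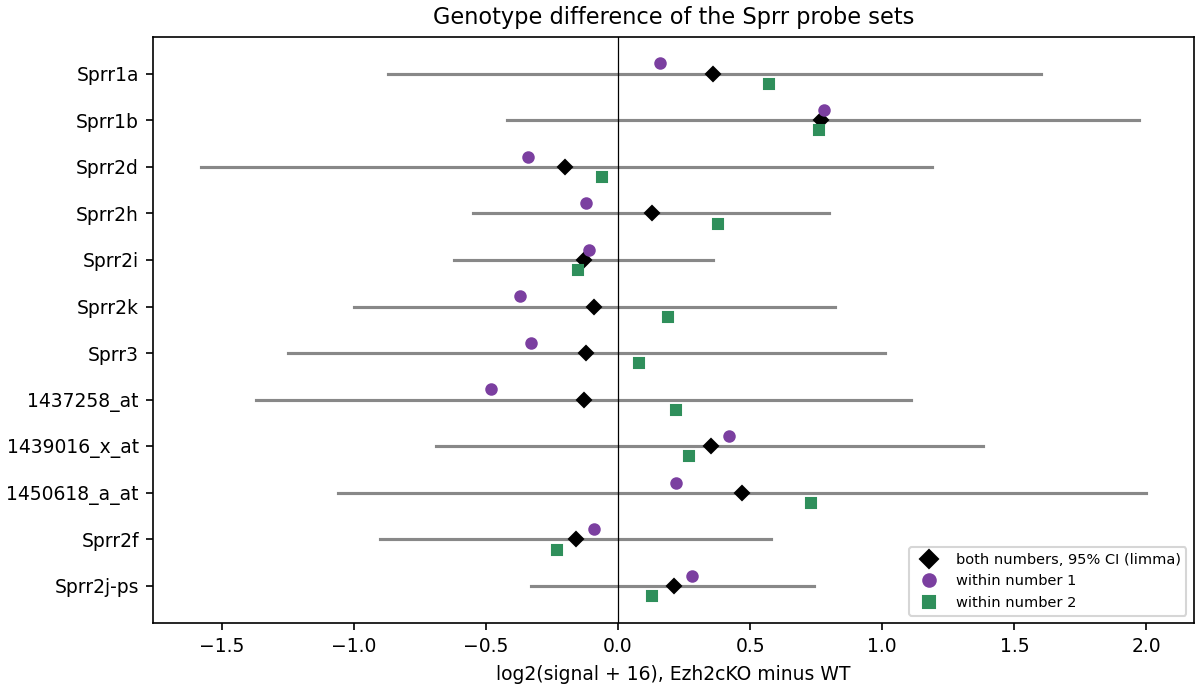
Difference in log2(signal + 16), Ezh2cKO minus WT, of the measured Sprr genes, the 3 probe sets listed with several Sprr2a copies and the family genes Sprr2f and Sprr2j-ps. Diamonds with bars give limma's estimate and 95% confidence interval over 2 arrays a genotype, circles the difference within number 1 and squares within number 2, and every interval includes 0, with Sprr1b at 0.77 farthest from it.

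Which Sprr genes separated the genotypes depended on the scaling and on single arrays. With quantile normalization or with arrays scaled to a common median, Sprr1a joined Sprr1b above WT, and Sprr2d and Sprr2i came to lie below WT in both Ezh2cKO arrays, 2 genes in each direction. Of all genes, 10% lay above and 11.3% below with quantile normalization, and 6.88% and 7.93% with the common median. With 3 arrays such a separation is easier to reach, so each count stands beside its own share of all genes. Without Ezh2cKO replicate 1, 5 Sprr genes lay above and 0 below (36.0% and 30.5% of all genes). Without Ezh2cKO replicate 2, 1 lay above and 4 below (31.6% and 35.7%). Without WT replicate 1 there were 2 above and 2 below (24.1% and 27.6%), and without WT replicate 2 there were 2 above and 0 below (28.8% and 23.8%). Sprr1b was the only Sprr gene above WT under all of these settings. With an array left out this follows from its separation on all arrays, so only the rescalings could have changed it. Under both rescalings Sprr1a lay above WT as well.

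Arrays of the same genotype differed as well. The difference between genotypes was smaller than the larger difference between 2 arrays of a genotype for 6 of 7 Sprr genes, the exception being Sprr1b, and for 88.8% of all genes, so the Sprr genes were close to the rest in this. Sprr2h and Sprr2k moved in opposite directions between the numbers in the 2 genotypes. On the signal + 16 scale, Sprr1a in number 2 was 1.56-fold its value in number 1 among WT arrays and 2.06-fold among Ezh2cKO arrays. Sprr1b was 1.57-fold and 1.55-fold higher, Sprr2d 1.49-fold and 1.82-fold, and Sprr3 1.47-fold and 1.95-fold. With Sprr2i, 5 of 7 genes were higher in number 2 in both genotypes and 0 were lower, while 40.7% of all genes were higher and 33.1% lower. With quantile normalization 4 Sprr genes were higher and 1 lower in number 2, against 24.7% and 45.9% of all genes. With the common median 3 were higher and 1 lower, against 11.8% and 67.7%. The difference for Sprr1b was then 0.16 in WT and -0.06 in Ezh2cKO.

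The brighter Sprr2a probe sets ran the other way. The probe set 1450618_a_at was 3.29-fold higher in number 1 than in number 2 among WT arrays and 2.31-fold higher among Ezh2cKO arrays. The probe set 1439016_x_at was 1.84-fold and 2.05-fold higher. Both kept this direction with quantile normalization and with the common median. In the signals as deposited, Sprr family probe sets moved in opposite directions between the arrays numbered 1 and 2, and the labels do not say what the numbers stand for.

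**Figure D3:**
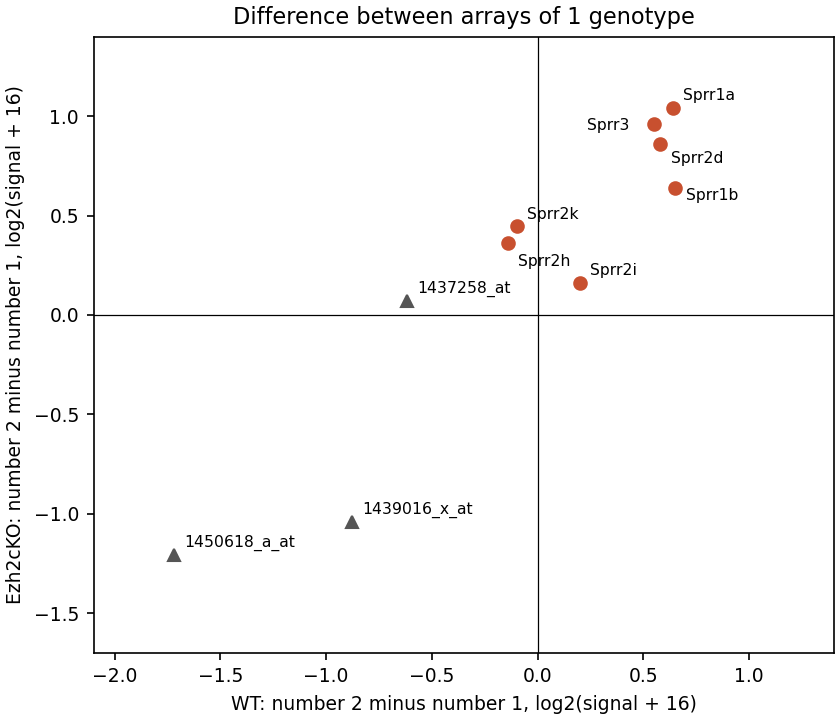
Difference between the arrays numbered 2 and 1 within WT (x axis) and within Ezh2cKO (y axis), in log2(signal + 16), for the 7 measured Sprr genes (circles) and 3 probe sets listed with several Sprr2a copies (triangles). Sprr1a, Sprr1b, Sprr2d, Sprr2i and Sprr3 lie at the upper right, while 1450618_a_at, at -1.72 and -1.21, and 1439016_x_at lie at the lower left.

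Some genes beside the Sprr cluster had larger differences than the Sprr genes, mainly within number 1. Of 20 genes that lie between the outermost Sprr genes or are the 5 nearest protein-coding genes on each side, 9 were measured, Sprr2f and Sprr2j-ps among them. Of the 7 outside the family, 5 had both Ezh2cKO arrays above both WT arrays and 0 had both below, where 9.90% and 9.14% of all genes did. Their median log2 difference was 1.43 within number 1 and 0.45 within number 2, against -0.12 and 0.19 for the Sprr genes. None of them was called by limma over all probe sets. At limma's unadjusted p under 0.05, 3 were higher and 0 lower, where 0.808% and 0.324% of all genes were.

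On the Sprr1a side, Ivl, which encodes the envelope protein involucrin, had 50.7 and 128 in WT and 164 on both Ezh2cKO arrays. Further along, Lce1b and Lce1a1, late cornified envelope genes, were 6.04-fold and 4.54-fold higher within number 1 and 1.92-fold and 1.52-fold within number 2. The probe set of Lce1a1, like that of Lor, is of a design type that can detect other transcripts too. Lce1a1 and Lce1b may therefore not be independent measurements. On the Sprr2a side, Lor, the gene of loricrin, had 1753 and 2498 in WT and 5629 and 3423 in Ezh2cKO, and Lelp1, a dim gene, had 7.5 and 16.6 against 24.0 and 34.7. All 5 lie above WT in both Ezh2cKO arrays, each by its brightest probe set. Averaging the probe sets of each gene lowered the log2 difference of Ivl from 0.88 to 0.49. That of Lor fell from 1.06 to 0.83, that of Lce1a1 rose, and those of Lce1b and Lelp1 did not change. Smcp, a sperm mitochondrial gene, and Prr9 were dim and did not separate the genotypes, with Smcp at 0.93 within number 1 and -0.86 within number 2. Without WT replicate 2 the log2 differences of Lor and Lce1b were 1.32 and 1.81, and without WT replicate 1 they were 0.81 and 1.73.

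**Figure D4:**
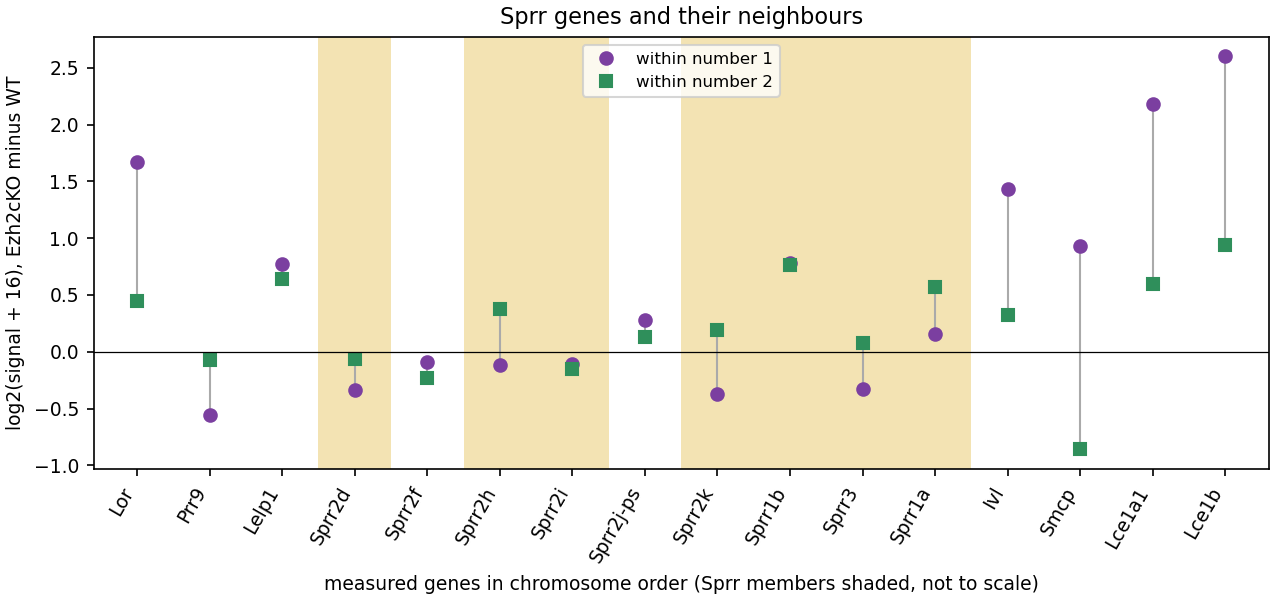
Difference in log2(signal + 16), Ezh2cKO minus WT, for the measured genes of the Sprr region in chromosome order, with circles for number 1, squares for number 2 and shading on the Sprr members. Lor, Ivl, Lce1a1 and Lce1b lie at 1.43 to 2.60 within number 1 and at 0.32 to 0.94 within number 2. The shaded genes lie between -0.37 and 0.78 in both numbers.

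The partners of the Sprr proteins in the envelope were followed in a list of 22 precursors, cross-linking enzymes and granular genes outside Sprr and Lce, of which 20 were measured. Of these, 8 had both Ezh2cKO arrays above both WT arrays, 1 had both below and 0 were called, where 9.90% of all genes lay above and 9.14% below, and the median log2 difference was 0.27. At limma's unadjusted p under 0.05, 4 were higher and 0 lower, where 0.808% and 0.324% of all genes were. The lists of transcription factors and of stress keratins and alarmins below held 0 at that level. Those with the largest moderated t were Flg, Lor, Crct1 and Kprp, with log2 differences of 2.18, 1.06, 1.93 and 1.26. With each array left out in turn Flg stayed between 2.08 and 2.27. Its signals were low in WT, at 23.8 and 29.5 against 169 and 184 in Ezh2cKO. The Flg difference was therefore 2.69 at a pseudocount of 1 and 1.41 at 64. Crct1 ran from 1.02 without Ezh2cKO replicate 1 to 2.83 without Ezh2cKO replicate 2. Hrnr, a relative of Flg picked out once its values were known, had 137 and 684 in WT and 642 and 863 in Ezh2cKO. Its log2 difference was 2.32 without WT replicate 2 and 0.12 without WT replicate 1. Transglutaminases, the enzymes that cross-link the Sprr proteins, were in the same list. Tgm1, the membrane-bound enzyme, had 104 and 115 in WT and 142 and 131 in Ezh2cKO. Tgm3, the enzyme active on Sprr proteins in the cytosol, had 249 and 289 against 301 and 313. Both lie above WT in both Ezh2cKO arrays by small steps (log2 0.28, SE 0.43, and 0.18, SE 0.29), and Tgm5, at 682 and 212 against 475 and 244, overlaps.

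Of 25 transcription factors known to act on Sprr promoters or on late epidermal genes, 24 were measured. In 4 of them both Ezh2cKO arrays lay above both WT arrays, in 0 below, where 9.90% and 9.14% of all genes did, and the median log2 difference was 0.11. The largest moderated t belonged to Hopx, Fos, Jun and Fosl2, with log2 differences of 0.36, 0.31, 0.64 and -0.26, and none was called. For Jun, leaving out WT replicate 1 gave 0.13 and leaving out Ezh2cKO replicate 2 gave 0.11, against 1.15 when WT replicate 2 was left out and 1.17 for Ezh2cKO replicate 1. In number 2, 11 of the 24 were higher in both genotypes and 10 lower, where 40.7% and 33.1% of all genes were. Among the higher ones were Jun, Jund and Fosl2 and, outside AP-1, Ehf, but not Fos. Fosb, Fosl1 and Junb, AP-1 subunits, were also higher in number 2 in both genotypes. Fosb had 593 and 5649 in WT and 2484 and 7831 in Ezh2cKO. The levels of the other two differed in the same way, with Fosl1 at 45.5 and 289 in WT and 85.8 and 744 in Ezh2cKO and Junb at 962 and 3848 against 1791 and 6046. Without WT replicate 2 the log2 differences of Fosb and Junb were 2.86 and 1.76. Without WT replicate 1 they were -0.35 and -0.22.

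Sprr1 and Sprr2 genes often rise in regenerating epidermis with stress keratins and alarmins, and 10 of 12 such genes were measured. In 4 both Ezh2cKO arrays lay above both WT arrays and in 1 below, where 9.90% and 9.14% of all genes did, with a median log2 difference of 0.26 and 0 called. Krt16, a keratin of regenerating epidermis, had 1091 and 371 in WT and 1665 and 935 in Ezh2cKO, higher in Ezh2cKO within each number. Krt6a, its keratin partner, had 248 and 201 against 572 and 254, and the alarmin gene S100a9 had 125 and 121 against 65.8 and 70.2. Krt6a lies above WT and S100a9 below WT in both Ezh2cKO arrays.

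Sprr1b had the widest range over the 4 arrays among the 7 genes (1.42 on the log2 scale). The 3 genes with the most similar profile, by the root mean square difference of log2 values centred on each gene's mean over 4 arrays among 12700 genes, were Dusp8 (0.066), Rem2 (0.067) and Aqp9 (0.088). Dusp8, which encodes a phosphatase of stress kinases, had 261 and 427 in WT and 496 and 684 in Ezh2cKO. The likeness is a description of these 4 arrays.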

How the data were processed

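RNA of sorted basal cells was hybridised to 4 Affymetrix mouse arrays. The authors deposited a MAS5 signal intensity for each probe set; the submitters' processing notes name MAS5 without a version, and each array had a mean of 500.0 once the top and bottom 2% were trimmed. Of 45101 probe sets, 64 controls were left out. Of the other 45037, 34945 had 1 gene symbol, updated through the gene identifier for 34741 (RefSeq, GRCm38.p6), 932 had several and 9160 none. A gene stood for its brightest probe set. Values were taken as log2(signal + 16) and fitted on genotype only over all 45037 probe sets, dim ones included, by limma (version 3.58.1; R version 4.3.3), whose empirical Bayes step followed the intensity trend, with Benjamini-Hochberg adjustment at 0.05, after a check on simulated data. The simulated data had noise independent between arrays and no difference between the numbers, so the check does not show how the fit performs here. The members and gene lists were chosen with earlier results of these data known, so nothing in them is independent support. Named genes were all members, Ezh2, up to 4 genes per list with the largest moderated t, genes whose role is described, and the 3 nearest profiles. Array numbers were not used to pair samples. Alternatives were pseudocounts 1 and 64, filters at the upper 60% and 40% of mean signal, quantile and median scaling, a replicate block, no trend, averaging the probe sets of each gene, and leaving out each array; those for Ezh2, the Sprr2a probe sets, other family genes and context genes were added after seeing the data.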

Additional observations from a re-analysis of the deposited data

How the results depend on the processing

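With 2 arrays a genotype and no detection calls used, differences of dim Sprr genes are poorly bounded. No Sprr gene was called under any alternative run, also at an adjusted p under 0.1, and the lowest adjusted p, 0.983 for Sprr1b, came from the fit with the replicate block (unadjusted 0.0168). Same-numbered arrays deviated together, with a correlation of 0.61 over all probe sets before any rescaling. With 2 arrays a genotype both pairs give this same value, so the pairs are not separate evidence. Nothing states that the numbers pair samples. The block kept the Sprr median at -0.09, by construction, and called 0 probe sets. Only 3 Sprr genes (Sprr1a, Sprr1b and Sprr2k) had a mean signal of at least 73.2, and their median log2 difference was 0.36; at the upper 40% no Sprr gene was left, so no value was computed.

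Quantile normalization and scaling to a common median each gave 2 Sprr genes above and 2 below WT in both Ezh2cKO arrays. At 1.5-fold, 1 Sprr gene was higher within number 1 and 1 within number 2. With 1 array left out, which leaves a lone array assumed to vary like the others, between 0 and 47 probe sets were called, 1 to 5 Sprr genes lay above and 0 to 4 below WT, and the Sprr median ran from -0.21 to 0.31.

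With each array left out in turn, these log2 differences changed sign, with ranges of -0.16 to 0.88 for Sprr1a, -0.63 to 0.23 for Sprr2d, -0.05 to 0.31 for Sprr2h, -0.32 to 0.14 for Sprr2k and -0.60 to 0.36 for Sprr3. The ranges were -0.44 to 0.19 for 1437258_at, -0.17 to 0.86 for 1439016_x_at and -0.39 to 1.33 for 1450618_a_at. They were -0.69 to 0.06 for Prr9, -0.56 to 0.63 for Smcp, -0.97 to 0.64 for Tgm5, -0.43 to 2.47 for Fosl1, -0.35 to 2.86 for Fosb and -0.22 to 1.76 for Junb. Without a change of sign, Lce1b ran from 0.98 to 2.56, Lce1a1 from 0.61 to 2.17, Ivl from 0.32 to 1.43, Krt16 from 0.19 to 1.71 and Krt6a from 0.18 to 1.30. Smcp also turned at a pseudocount of 1 (-0.07). The cause was not tested. Sprr1b was positive in all 11 alternatives with a log2 difference, from 0.45 to 1.10, and Sprr2i negative in all 10, from -0.43 to -0.03. These tallies do not count separate evidence. The replicate block, the probe-set mean and, for Sprr1b, the signal filter repeat the main difference by construction. The Sprr1b groups do not overlap, so no pseudocount or left-out array could turn its sign. Only the rescalings could, at 0.74 with quantile normalization and 0.76 with the common median. For Sprr2i these gave -0.15 and -0.14, on signals below the pseudocount of the main fit.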
